A study of Mus musculus with 14 samples.

Results

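The 10 genes described here are Myc, Mycn, Mycl, Max, Mxd1, Mxd3, Mxd4, Mxi1, Mnt and Mlx, the Myc family with its dimer partner Max, the repressors that compete for Max, and the Max-like factor Mlx. They were taken by gene name from an expression table of 35275 mouse genes, and all 10 were found. Levels are in FPKM, which is fragments scaled to library size, divided by transcript length in kilobases. Of the 10, 9 had a mean above 1 FPKM in at least 1 line of some comparison and were tested there. Each comparison tested between 11782 and 11915 genes, and 12256 genes were tested in at least 1 comparison. Mycl stayed under 1 FPKM in every line.

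Myc, N-Myc and L-Myc, the products of Myc, Mycn and Mycl, bind DNA only as dimers with Max, at the E-box CACGTG, and activate genes of ribosome production, nucleotide synthesis, glycolysis and cell cycle entry. The proteins made from Mxd1, Mxd3, Mxd4, Mxi1 and Mnt also pair with Max and bind E-boxes, but recruit Sin3 and histone deacetylases and repress. Mlx is a second hub, which pairs with the glucose sensors encoded by Mlxip and Mlxipl as well as with some Mxd proteins and Mnt. Myc is a known target of β-catenin and Tcf, and its gain is common in ovarian cancer.

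KMF cells are murine ovarian tumor cells of C57Bl6 origin, derived from ID8 cells by passage in mice, and carry gains of Myc and the FAK gene Ptk2, among others. FAK KO cells are KT13, a single KMF clone with Ptk2 disrupted by CRISPR/Cas9 in exon 4, and the other 3 lines were made from this clone, so that all 4 share its knockout and its clonal history. FAK-WT cells re-express lentiviral GFP-FAK, FAK-R454 cells re-express GFP-FAK-R454 without kinase activity, and β-catenin ΔGSK cells, called ΔGSK cells from here on, carry a retroviral active β-catenin that lacks its GSK3β phosphorylation sites, with GFP made independently. All lines were grown as tumorspheres for 5 days, and 3 samples of each line, but 2 of FAK-R454, were analysed here. The labels do not say that replicates of a line came from separate cultures, so p-values measure the spread between these samples, which may be technical. Per the methods of the study, KMF samples were taken at different passages.

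Each library held between 25390558 and 35289859 fragments on genes. Ptk2 was lowest in ΔGSK (15.5 FPKM) and FAK KO cells (19.0 FPKM) and highest in FAK-R454 cells (62.4 FPKM), but this value counts edited and re-expressed transcripts together. Axin2, a β-catenin target, was 109.6 ± 6.69 FPKM in ΔGSK cells and 0.822 ± 0.0146 FPKM in FAK KO cells (SD, n = 3 each). Of 11 markers of ovarian surface epithelium and mesothelium, 6 were above 1 FPKM in every line, and Krt7, Cdh1, Epcam, Pax8 and Muc16 were at or under 1 FPKM. The summed level of this list ran from 1571 to 1814 FPKM in FAK-WT samples and from 1077 to 1403 FPKM in the other samples. Of 6 macrophage and other immune markers in the table, 2 were above 1 FPKM in every line. The summed immune level was highest in FAK-WT samples, from 11.5 to 16.6 FPKM. It ran from 3.98 to 5.21 FPKM in ΔGSK, 6.85 to 6.95 in FAK KO, 7.47 to 8.14 in KMF and 8.76 to 9.10 in FAK-R454 samples. Of 6 fibroblast markers, 3 were above 1 FPKM in every line but ΔGSK, where 1 was, with sums from 30.8 to 45.1 FPKM in ΔGSK, 41.8 to 49.9 FPKM in KMF and 90.01 to 145.4 FPKM in the other samples. Of 4 endothelial markers, 2 were above 1 FPKM in FAK KO and FAK-WT cells and 1 in the other lines, with sums from 6.55 to 7.42 FPKM in ΔGSK and 17.1 to 29.95 FPKM in the other samples. Ptprc, Csf1r, Cd3e, Pdgfrb, Col1a2, Lum, Cdh5 and Kdr were at or under 1 FPKM in every line. The part of these markers in the values below was not tested. The summed level of Mki67, Top2a and Ccnb1, which mark dividing cells, ran from 46.1 to 53.2 FPKM in FAK KO, from 55.6 to 57.5 FPKM in FAK-R454, from 79.8 to 80.9 FPKM in KMF and from 86.1 to 99.9 FPKM in ΔGSK samples. In FAK-WT cells it ran from 48.9 to 79.0 FPKM, and replicate 3 was the low one and stood apart. In bulk samples, fewer cells that express a gene and less RNA per cell cannot be told apart.

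The E-box is the sequence that every dimer of this network binds, so it was searched on both strands from 250 bases before to 50 bases after each RefSeq start of GRCm38.p6. Promoters of 9 of the 10 genes, all but Myc, were matched, 11 windows in all. Max, Mxd4, Mnt and Mlx each held 1 E-box, which was 36.4% of the 11 windows, against 7.15% of 32851 promoters and 9.98% of 11295 promoters of tested genes. The 30 bases around each are given with the E-box in capitals.
Max: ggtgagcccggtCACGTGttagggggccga
Mxd4: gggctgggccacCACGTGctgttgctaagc
Mnt: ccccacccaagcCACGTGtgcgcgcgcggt
Mlx: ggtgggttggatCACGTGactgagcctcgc
These lie at chr12:76962234-76962263 on the minus strand, chr5:34187912-34187941 on the minus strand, chr11:74830789-74830818 on the plus strand and chr11:101087238-101087267 on the plus strand. A Tcf/Lef motif (CTTTG followed by AA, AT, TA or TT, on either strand) was found in the window of Mycn and of no other matched member, against 16.9% of all promoters and 11.4% of those of tested genes. Its reverse complement is in capitals here, at chr12:12941833-12941862 on the minus strand.
Mycn: tatcccccgagcTTCAAAGcgcagccagtg
These matches are descriptions of sequence and not measured binding sites. The 4 genes with an E-box varied least among the 9 tested members: the log2 range of their line means was 0.17 for Max, 0.18 for Mlx, 0.19 for Mnt and 0.53 for Mxd4. Without one, it was 0.59 for Mxd1, 0.68 for Mxi1, 1.60 for Mxd3 and 4.13 for Mycn, and for Myc, which was not matched, it was 0.77. This split was seen after the values were known, and was not tested.

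Myc was by far the most abundant family member, and Mxd4 the most abundant antagonist. In FPKM, which is per length, FAK KO cells held Mxd4 at 87.0 ± 4.24, Myc at 36.8 ± 1.14, Mnt at 27.1 ± 2.20, Max at 19.9 ± 1.65, Mxi1 at 13.98 ± 0.848, Mlx at 12.7 ± 0.426, Mxd1 at 5.94 ± 0.468, Mxd3 at 5.15 ± 0.923, Mycn at 1.15 ± 0.0316 and Mycl at 0.227 ± 0.0634 (SD, n = 3). Summed over the 10 genes, the level lay between 205.2 and 230.0 FPKM in all samples, while the make-up of this sum differed between lines.

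**Figure D1:**
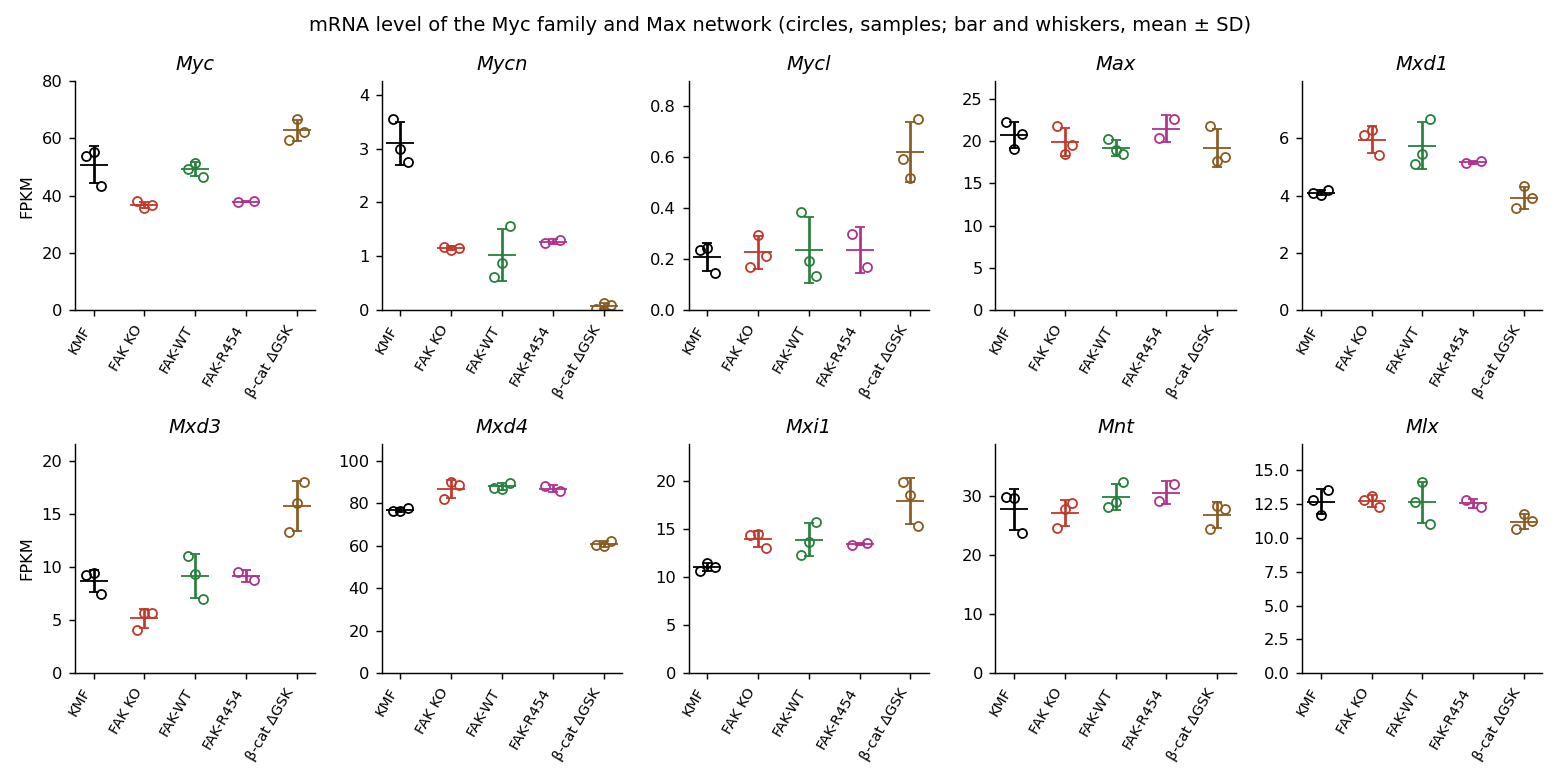
FPKM of the 10 genes (vertical axes, each from 0) in the samples of the 5 lines, with circles for samples and a bar with whiskers for mean ± SD (n = 3, FAK-R454 n = 2). Myc, Mxd3 and Mycl were highest and Mycn and Mxd4 lowest in ΔGSK cells, while neighbouring lines in the order of means overlap for Max and Mnt, and for Mlx all but ΔGSK do.

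Myc (ENSMUSG00000022346, chromosome 15, 61985341 to 61990374, plus strand, GRCm38) separated the lines into 3 levels. The ΔGSK samples held 59.4, 66.7 and 62.2 FPKM. KMF samples held 53.9, 55.3 and 43.5 FPKM, and FAK-WT samples 49.2, 51.6 and 46.7 FPKM. The lowest level was that of FAK-R454 (37.8 and 38.2 FPKM) and FAK KO samples (38.0, 35.7 and 36.7 FPKM). Neighbours in this order overlapped between KMF and FAK-WT and between FAK-R454 and FAK KO, and not otherwise.

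Relative to FAK KO cells, Myc rose 1.71-fold in ΔGSK cells (log2 fold change 0.77, SE 0.07, adjusted p = 2.13e-05, limma), 1.38-fold in KMF cells (0.46, SE 0.09, adjusted p = 0.00371) and 1.34-fold in FAK-WT cells (0.42, SE 0.06, adjusted p = 0.00180). In FAK-R454 cells its log2 fold change was 0.05 (SE 0.06, adjusted p = 0.617). All 4 comparisons share the FAK KO samples. The direct test put Myc 0.37 higher with FAK-WT than with FAK-R454 (SE 0.06, adjusted p = 0.0201). That call ended without FAK-WT replicate 1 (adjusted p = 0.0636), FAK-WT replicate 2 (0.0875), FAK-R454 replicate 1 (0.194) or FAK-R454 replicate 2 (0.204), with log2 fold changes between 0.33 and 0.38, and it held without FAK-WT replicate 3 (0.41, adjusted p = 4.44e-04).

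Chromosome 15, which carries Myc, was shifted upward as a whole, most in FAK-WT cells. The median log2 fold change of its 472 to 479 genes tested per comparison lay 0.39 above that of other chromosomes in FAK-WT against FAK KO cells, 0.18 above in FAK-R454, 0.11 in KMF and 0.10 in ΔGSK cells, and 0.20 above between FAK-WT and FAK-R454 cells. With each chromosome centred on its own median, Myc was 0.12 in FAK-WT against FAK KO cells (SE 0.06, adjusted p = 0.189) and 0.22 in FAK-WT against FAK-R454 cells (SE 0.05, adjusted p = 0.0645), so that both calls ended. In ΔGSK cells it was 0.82 (SE 0.07, adjusted p = 1.96e-05), in KMF cells 0.40 (SE 0.10, adjusted p = 0.0116) and in FAK-R454 cells -0.11 (SE 0.07, adjusted p = 0.293). The summed proliferation markers were also highest in ΔGSK and KMF cells. The part of either in the Myc values was not tested.

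Of 30 genes of the table that start within 3 Mb of Myc, 8 were tested in each comparison and 1 more, 9930014A18Rik, in KMF against FAK KO cells. In FAK-WT against FAK KO cells 4 of the 8 rose, Trib1 by 0.50, Asap1 by 0.47, Sqle by 0.46 and Fam49b by 0.30, next to 0.42 for Myc, and none fell. Over all genes tested 15.6% rose and 25.2% fell in that comparison, and 23.7% rose and 34.4% fell in ΔGSK against FAK KO cells. In ΔGSK cells Trib1 rose by 0.95 (SE 0.07, adjusted p = 9.79e-06), next to 0.77 for Myc. There Sqle rose by 0.49, Asap1 by 0.32 and Pvt1 by 0.24, and Nsmce2 fell by 0.38. The lowest others were not called, E430025E21Rik at -0.10 in ΔGSK and 0.11 in FAK-WT cells and Fam84b at 0.06 in FAK-WT cells. Between FAK-WT and FAK-R454 cells Trib1 was higher by 0.35 (SE 0.07, adjusted p = 0.0390, limma) and Asap1 by 0.23 (SE 0.05, adjusted p = 0.0454). Myc was higher by 0.37 there, and no other neighbour was called. Over all genes tested 3.38% were higher and 4.44% lower in that comparison. Pvt1 is the long noncoding RNA gene that starts nearest to Myc among those tested, 0.0526 Mb away. It was 7.25 FPKM in ΔGSK, 6.88 in FAK-WT, 6.15 in FAK KO, 5.51 in KMF and 5.20 in FAK-R454 cells.

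**Figure D2:**
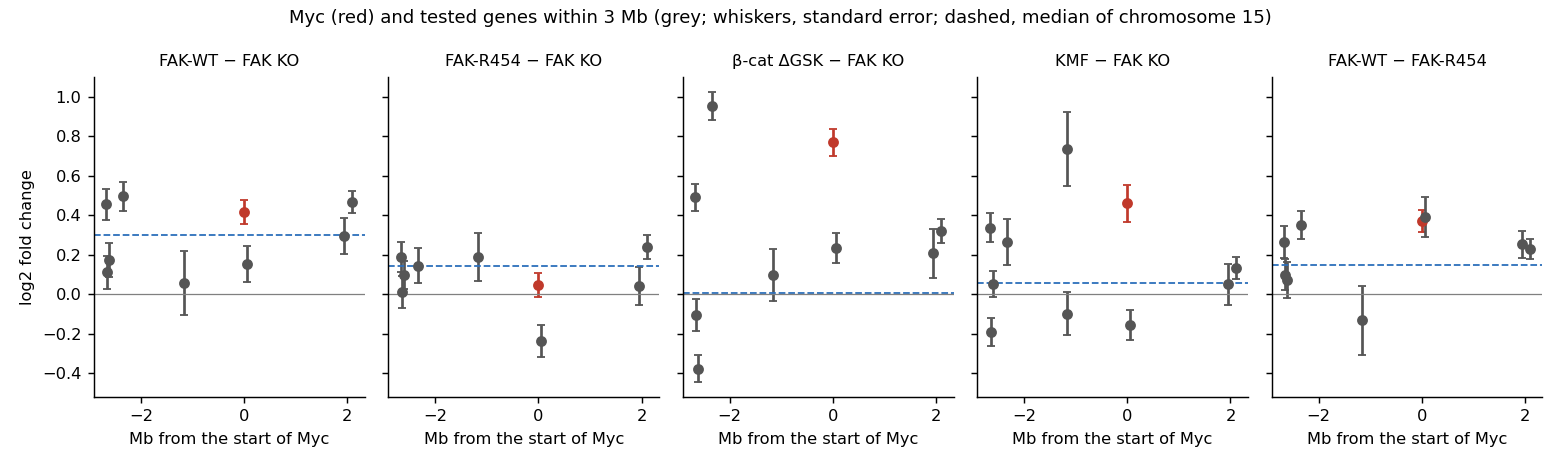
Log2 fold change (vertical axis) of Myc (red) and of the tested genes within 3 Mb (grey) against the distance of their start from that of Myc in Mb, 1 panel per comparison, with whiskers for the standard error and a dashed line for the median of chromosome 15. In FAK-WT against FAK KO cells Myc (0.42) lies among its neighbours, and in ΔGSK cells Myc (0.77) and Trib1 (0.95) lie above the rest.

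Mycn, normally a gene of embryonic and neural tissue, varied more between lines than any other tested member. KMF samples held 3.54, 2.99 and 2.76 FPKM. FAK KO samples held 1.18, 1.12 and 1.16 FPKM, FAK-R454 samples 1.24 and 1.31 FPKM, and FAK-WT samples 0.628, 0.879 and 1.57 FPKM. ΔGSK samples held 0.0264, 0.133 and 0.102 FPKM. So KMF cells stood above and ΔGSK cells below all others without overlap.

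Mycn rose in KMF against FAK KO cells (log2 fold change 1.34, SE 0.13, adjusted p = 5.98e-05, limma) and fell in ΔGSK cells (-2.79, SE 0.29, adjusted p = 5.77e-05). The second value depends on the pseudocount and on low counts. In fragments it rests on 19 in the 3 ΔGSK libraries and 260 in the 3 FAK KO libraries, a level 13.5-fold lower after correction for depth (95% exact interval 8.49 to 22.8, counting error only). In FAK-WT cells the log2 fold change was -0.24 (SE 0.29, adjusted p = 0.513), with replicate 3 above all FAK KO samples and the others below. It was 0.03 without FAK-WT replicate 1 (adjusted p = 0.938) and -0.57 without FAK-WT replicate 3 (adjusted p = 0.0571). In FAK-WT against FAK-R454 cells it was -0.38 (SE 0.35, adjusted p = 0.526), and without FAK-WT replicate 3 it was called lower (-0.71, adjusted p = 0.0411). Mycn made up 5.73% of the summed FPKM of the 3 Myc genes in KMF, 3.03% in FAK KO and 0.134% in ΔGSK cells.

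Mycl was under 1 FPKM in all samples. It held 0.594, 0.517 and 0.747 FPKM in ΔGSK samples, and between 0.136 and 0.383 FPKM in the samples of the other 4 lines, without overlap. The 3 ΔGSK libraries held 182 Mycl fragments and the FAK KO libraries 66, a ratio of 2.79 after correction for depth (95% exact interval 2.09 to 3.76, counting error only). Without a filter on low values, Mycl was higher in ΔGSK cells by 1.14 (SE 0.24, adjusted p = 0.00863 over 21741 genes). In the other comparisons its log2 fold change lay between -0.08 and 0.03, and none was called. Among the 3 family members, ΔGSK cells thus held more Myc and Mycl and less Mycn than FAK KO cells.

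Max, the obligate partner, was level. It held 22.2, 19.1 and 20.8 FPKM in KMF, 21.7, 18.5 and 19.5 in FAK KO, 20.2, 18.9 and 18.5 in FAK-WT, 20.3 and 22.6 in FAK-R454, and 21.7, 17.6 and 18.1 in ΔGSK samples. Neighbouring lines in its order overlapped throughout, and no comparison passed the test, with log2 fold changes between -0.16 and 0.11. The ratio of Myc to Max was 1.85 ± 0.0945 in FAK KO and 3.32 ± 0.537 in ΔGSK cells (SD, n = 3 each), and the lowest ΔGSK sample (2.73) lay below the highest KMF sample (2.90).

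Mlx held between 11.1 and 14.1 FPKM in the samples of all lines but ΔGSK, which held 10.6, 11.7 and 11.2 FPKM. Against FAK KO this was a log2 fold change of -0.18 (SE 0.07, adjusted p = 0.0560) that missed the threshold, and that was called with chromosomes centred (-0.24, adjusted p = 0.0235). Mlx shares part of its span with Psmc3ip on the opposite strand, at 6.71 to 8.47 FPKM by line, and whether counting used strand is not stated. Txnip and Arrdc4 are arrestin-family genes that Mlx activates with its glucose-sensing partners. Txnip rose in KMF cells from 75.3 ± 6.26 to 160.9 ± 21.0 FPKM (SD, n = 3 each, log2 fold change 1.09, adjusted p = 6.41e-05), and was 0.17 higher in ΔGSK cells (adjusted p = 0.117). Arrdc4 rose in ΔGSK cells from 2.05 ± 0.278 to 5.20 ± 0.800 FPKM (log2 fold change 1.298, adjusted p = 8.89e-05), and was 0.29 higher in KMF cells (adjusted p = 0.144). In FAK-WT cells Arrdc4 rose by 0.94 (SE 0.26, adjusted p = 0.0205, and 0.63 without FAK-WT replicate 3), and Txnip was 0.51 higher (SE 0.19, adjusted p = 0.0557, and 0.27 without FAK-WT replicate 3). Its samples did not overlap those of FAK KO cells, which held for 56.1% of all genes tested. In FAK-R454 cells Txnip rose by 0.28 (SE 0.08, adjusted p = 0.0377), and Arrdc4 was 0.13 higher (adjusted p = 0.538).

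Of 10 other partners and corepressors, such as Mga, Mlxip, Sin3a and Hdac1, 9 were tested. In FAK-WT against FAK KO cells none rose and 4 fell, where 15.6% of all genes rose and 25.2% fell. Mlxipl, the glucose-responsive Mlx partner, fell from 6.63 ± 0.803 to 2.40 ± 0.848 FPKM (log2 fold change -1.49, SE 0.25, adjusted p = 0.00269), and in ΔGSK cells it rose to 10.2 ± 2.65 FPKM (0.59, SE 0.17, adjusted p = 0.0181). It also fell in FAK-R454 (-1.33, adjusted p = 5.74e-04) and KMF cells (-1.28, adjusted p = 3.50e-04). Between FAK-WT and FAK-R454 cells it was -0.16 (SE 0.32, adjusted p = 0.774). Sin3b, the corepressor that Mxd proteins recruit, fell from 60.6 ± 3.05 FPKM in FAK KO to 36.4 ± 3.91 FPKM in FAK-WT (-0.74, adjusted p = 5.91e-04) and 30.8 ± 2.57 FPKM in ΔGSK cells (-0.98, adjusted p = 1.43e-05). Sin3b also fell in KMF (-1.39, adjusted p = 1.22e-06) and FAK-R454 cells (-0.46, adjusted p = 0.00363). Its relative Sin3a was 0.07 in FAK-WT cells and was not called. Hdac1, a histone deacetylase gene, rose by 0.28 in ΔGSK cells and was 0.05 in FAK-WT cells (not called), and Hdac2 was -0.11 in ΔGSK cells (not called). In the whole list 3 rose and 1 fell in ΔGSK, 0 rose and 4 fell in KMF, 1 rose and 2 fell in FAK-R454 cells against FAK KO, and none was called between FAK-WT and FAK-R454 cells. Without FAK-WT replicate 3 it was 3 lower there, where 15.3% of all genes were lower. With all samples, 23.7% of all genes rose and 34.4% fell in ΔGSK, 23.1% and 28.7% in KMF and 9.78% and 9.89% in FAK-R454 cells against FAK KO, and 3.38% were higher and 4.44% lower between FAK-WT and FAK-R454 cells. The median log2 fold change of the list was -0.19 in FAK-WT and 0.12 in ΔGSK cells, where the medians of all genes tested were -0.08 and -0.09.

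Mxd3, the antagonist made in S phase of dividing cells, was the member that rose against FAK KO in all 4 other lines. FAK KO samples held 4.08, 5.66 and 5.70 FPKM. KMF samples held 9.19, 9.38 and 7.48, FAK-WT samples 11.05, 9.35 and 6.98, and FAK-R454 samples 9.55 and 8.75 FPKM. ΔGSK samples held 13.3, 15.98 and 17.99 FPKM, above all others without overlap.

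The log2 fold change of Mxd3 against FAK KO was 1.60 in ΔGSK (SE 0.15, adjusted p = 3.87e-05), 0.83 in FAK-R454 (SE 0.15, adjusted p = 0.00705), 0.81 in FAK-WT (SE 0.18, adjusted p = 0.01003) and 0.75 in KMF cells (SE 0.14, adjusted p = 0.00273, limma). Without FAK-WT replicate 3, the sample that was low in proliferation markers, the FAK-WT value was 0.98 (SE 0.15, adjusted p = 0.00260). Without FAK-R454 replicate 1 the FAK-R454 value was 0.77 (SE 0.20, adjusted p = 0.0828). FAK-WT and FAK-R454 cells differed by -0.03 (SE 0.18, adjusted p = 0.938). The proliferation markers were also highest in ΔGSK samples, and KMF samples lay above FAK-R454 samples in them, while the Mxd3 samples of KMF and FAK-R454 overlapped. Their part in the Mxd3 values was not tested.

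The 3′ end of Mxd3 overlaps that of Prelid1, a gene on the opposite strand, by 104 bases. FAK KO cells held Prelid1 at 190.9 ± 14.3 FPKM and ΔGSK cells at 327.8 ± 27.7 FPKM (SD, n = 3 each). It rose by 0.78 in ΔGSK cells, and by 0.26 in KMF, 0.35 in FAK-R454 and 0.45 in FAK-WT cells, in each case less than Mxd3. As the strand setting is not stated, the values of Mxd3 are uncertain by the fragments the 2 genes may share.

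Mxd4, which is linked to quiescent and differentiated cells, held 82.2, 90.1 and 88.7 FPKM in FAK KO, 87.4, 86.9 and 89.8 in FAK-WT, and 88.2 and 85.7 in FAK-R454 samples, which overlap. KMF samples lay below at 76.4, 76.6 and 78.1 FPKM and ΔGSK samples lowest at 60.3, 60.1 and 62.5 FPKM. Mxd4 fell in ΔGSK cells by 0.51 on the log2 scale (SE 0.06, adjusted p = 1.50e-04). Chromosome 5, which carries it, was shifted by -0.24 in this comparison, and the call held with chromosomes centred (-0.19, adjusted p = 0.0282). In KMF cells it fell by 0.17 (SE 0.06, adjusted p = 0.0395), and this call ended with median-of-ratios scaling (-0.12, adjusted p = 0.134), without a trend in the variance (adjusted p = 0.0629), without FAK KO replicate 2 or 3, without KMF replicate 1 or 2 (adjusted p between 0.0822 and 0.148), and with chromosomes centred, where the value was 0.01.

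Mxd1, the antagonist induced in differentiation, was lowest in the same lines. It held 3.55, 4.33 and 3.91 FPKM in ΔGSK and 4.10, 4.03 and 4.18 FPKM in KMF samples, against 6.11, 6.30 and 5.41 FPKM in FAK KO samples. It fell by 0.59 on the log2 scale in ΔGSK (SE 0.11, adjusted p = 0.00157) and by 0.52 in KMF cells (SE 0.09, adjusted p = 0.00128). Chromosome 6, which carries Mxd1, was shifted by -0.31 in KMF against FAK KO cells, and with chromosomes centred the KMF value was -0.22 (adjusted p = 0.0690), no longer called. FAK-WT and FAK-R454 samples, at 5.10 to 6.66 FPKM, gave log2 fold changes of -0.06 and -0.20 that were not called.

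Mxi1 moved in opposite directions in these lines. It held 19.9, 18.5 and 15.3 FPKM in ΔGSK, 14.4, 14.5 and 13.005 in FAK KO and 10.6, 11.5 and 11.03 in KMF samples, with FAK-WT and FAK-R454 samples between 12.3 and 15.7 FPKM. It rose by 0.35 in ΔGSK cells (SE 0.10, adjusted p = 0.0194), a call that ended without FAK KO replicate 3 (0.30, adjusted p = 0.0774) or ΔGSK replicate 2 (0.32, adjusted p = 0.0681). It fell by 0.34 in KMF cells (SE 0.07, adjusted p = 0.00466), where chromosome 19 was shifted by -0.23 and the centred value was -0.09 (adjusted p = 0.411). Mnt, the broadly expressed antagonist, held between 23.8 and 32.4 FPKM in all 14 samples, with log2 fold changes between -0.04 and 0.18 and none called.

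Counted together, 6 of the 9 tested members passed the test in ΔGSK against FAK KO cells, 3 higher and 3 lower, where 58.1% of all genes tested did. In KMF against FAK KO cells it was also 6, 3 higher and 3 lower, against 51.8% of all genes. In FAK-WT against FAK KO cells 2 rose, Myc and Mxd3, against 40.8% of all genes called. In FAK-R454 against FAK KO cells Mxd3 alone was called, against 19.7%, and between FAK-WT and FAK-R454 cells Myc alone, against 7.82%. These shares lie near or under the background. The median size of the members' log2 fold change was 0.51 in ΔGSK cells (0.33 over all genes), 0.34 in KMF cells (0.27), 0.11 in FAK-R454 cells (0.16) and 0.06 in FAK-WT cells (0.22), each against FAK KO, and 0.04 between FAK-WT and FAK-R454 cells (0.12). A log2 fold change of at least 1 in size was reached by Mycn and Mxd3 in ΔGSK cells, where 12.1% of genes reached it, and by Mycn in KMF cells, where 8.01% did. None of the 9 reached it in FAK-WT against FAK KO (4.62% of genes), FAK-R454 against FAK KO (2.74%) or FAK-WT against FAK-R454 cells (1.44%).

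**Figure D3:**
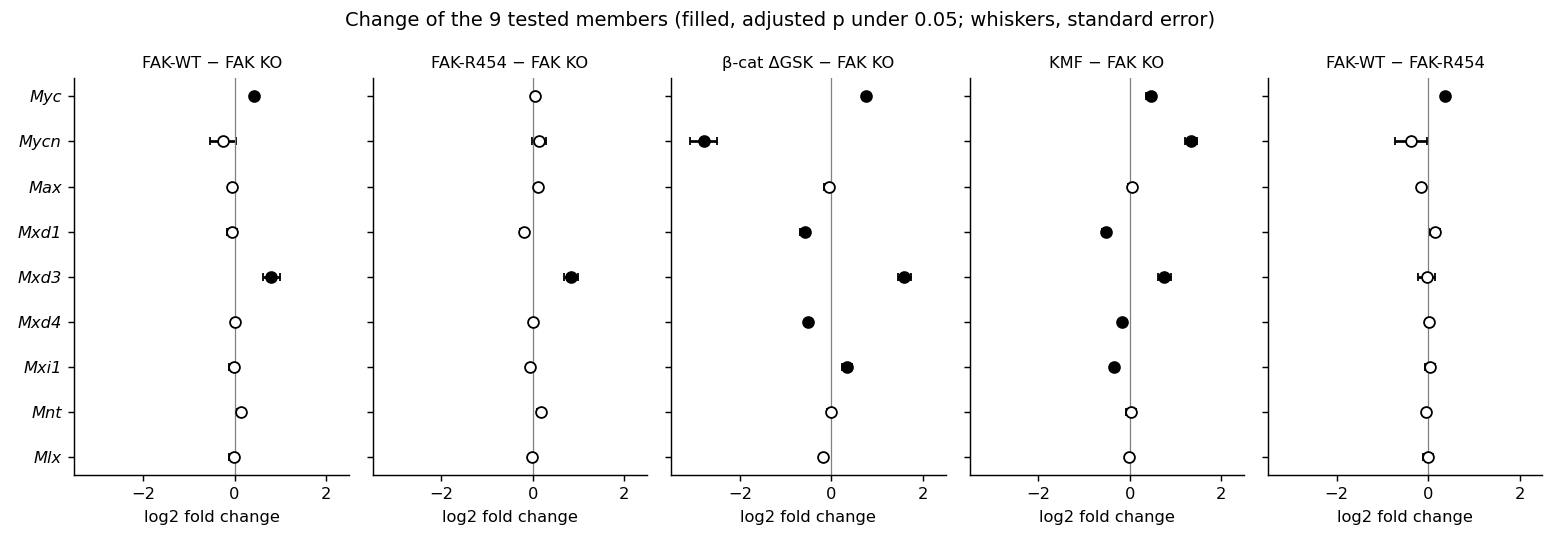
Log2 fold change (horizontal axis) of the 9 tested members in the 5 comparisons, with whiskers for the standard error and filled points for an adjusted p under 0.05. The extremes are Mycn at -2.79 in ΔGSK cells and Mxd3 at 1.60 in the same cells, while the points of Max, Mnt and Mlx are unfilled in every panel.

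The balance of activator to antagonist mRNA differed between lines. The ratio of Myc to the summed FPKM of Mxd1, Mxd3, Mxd4, Mxi1 and Mnt was 0.490, 0.524 and 0.488 in ΔGSK samples. It was 0.414, 0.421 and 0.349 in KMF, 0.341, 0.357 and 0.308 in FAK-WT, 0.260 and 0.263 in FAK-R454 and 0.289, 0.247 and 0.259 in FAK KO samples. The ΔGSK samples lay above all others, and those of FAK-R454 fell within the range of FAK KO. The summed antagonists ran from 121.3 to 151.6 FPKM over all samples. Within that sum Mxd4 took 62.5% ± 0.127 in FAK KO and 48.6% ± 1.25 in ΔGSK cells, and Mxd3 took 3.68% ± 0.503 and 12.5% ± 1.59 (SD, n = 3 each).

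**Figure D4:**
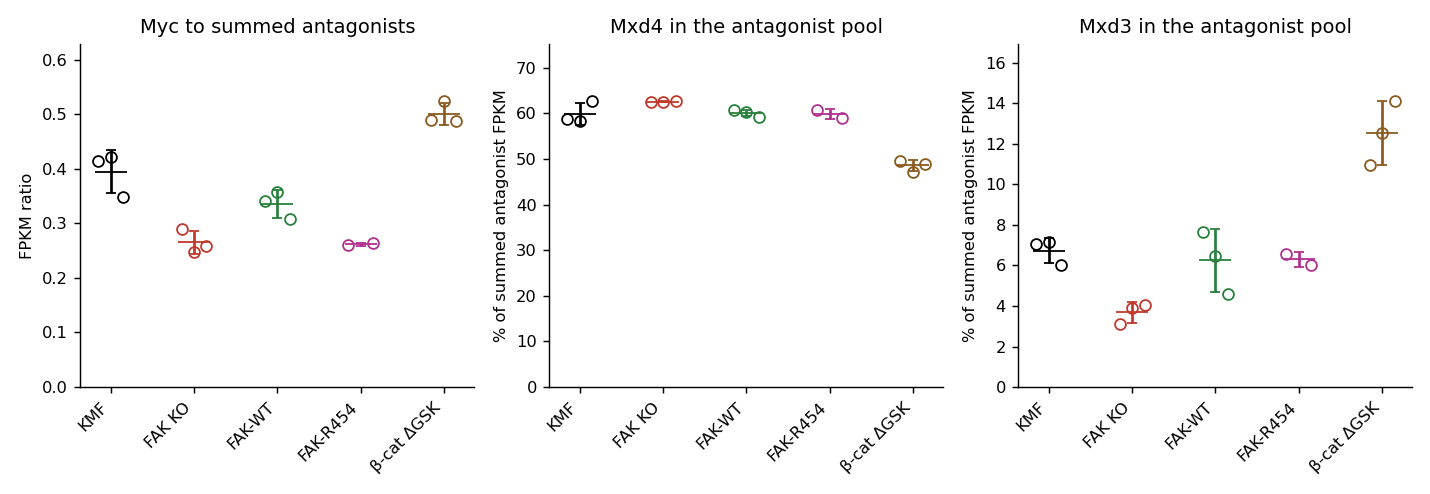
Ratio of Myc FPKM to the summed FPKM of the 5 antagonists (left) and the percent of that sum held by Mxd4 (middle) and Mxd3 (right), per sample (circles) with mean ± SD (n = 3, FAK-R454 n = 2). ΔGSK samples have the highest ratio (0.488 to 0.524), the lowest Mxd4 share and the highest Mxd3 share.

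Of 40 genes that Myc is known to activate, 22 rose and 2 fell in ΔGSK against FAK KO cells, where 23.7% of all genes rose and 34.4% fell. The median log2 fold change of the list was 0.29, where that of all genes tested was -0.09. The 22 include Tert, which passed the filter of 1 FPKM in this comparison only through ΔGSK cells, so that its place among them was set by the filter. Hk2, hexokinase, rose from 11.6 ± 1.63 to 29.9 ± 2.64 FPKM (1.36, adjusted p = 1.63e-05) and Ccnd2, cyclin D2, from 113.8 ± 2.90 to 266.3 ± 29.3 FPKM (1.22, adjusted p = 5.45e-06). Against FAK KO, Ccnd2 fell by 0.85 in KMF, 0.33 in FAK-WT and 0.48 in FAK-R454 cells, all called. In ΔGSK cells the lowest of the list also fell. These were E2f2, by 0.69, and Cad, of pyrimidine synthesis, by 0.24. In FAK-WT cells 8 of 39 rose and 5 fell, with a median of 0.01 against -0.08 for all genes, of which 15.6% rose and 25.2% fell. There Ldha, lactate dehydrogenase, rose by 0.96 (SE 0.22, adjusted p = 0.0106, and 0.67 without FAK-WT replicate 3) and the glutamine transporter gene Slc1a5 by 0.76, and the amino acid transporter gene Slc7a5 fell by 0.53 and Shmt1 by 0.47. KMF cells had 15 higher and 6 lower of 39 (median 0.15 against -0.05), where 23.1% of all genes rose and 28.7% fell, and FAK-R454 cells 4 higher and 6 lower of 40 (0.01 against -0.03), where 9.78% and 9.89% did. Between FAK-WT and FAK-R454 cells none of the 40 was called (median 0.01 against -0.05), where 3.38% of all genes were higher and 4.44% lower. Without FAK-WT replicate 3, 12 of the 40 were higher and 2 lower in that comparison (median 0.09 against -0.04), where 12.8% of all genes were higher and 15.3% lower. Against FAK KO 10 then rose and 5 fell (median 0.07 against -0.07), where 16.7% and 22.1% of all genes did.

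Of the genes that Myc is known to repress, more rose than fell in each comparison with FAK KO cells. Of 14 tested in ΔGSK cells, 8 rose and 3 fell (median 0.44 against -0.09 for all genes), where 23.7% of all genes rose and 34.4% fell. The 8 include Cdkn1c, which passed the filter of 1 FPKM only through ΔGSK cells, so that its place among them was set by the filter. Ndrg2 rose from 1.49 ± 0.230 to 111.4 ± 8.89 FPKM (log2 fold change 6.14, adjusted p = 3.03e-09). Cdkn1c, a cyclin-dependent kinase inhibitor gene, was at 0.0115 ± 0.0199 FPKM in FAK KO and 1.23 ± 0.130 FPKM in ΔGSK cells. The size of its fold change rests on the pseudocount and is not given. Gadd45a, a growth arrest gene, fell from 85.5 ± 4.97 to 5.59 ± 0.180 FPKM (-3.91, adjusted p = 2.66e-09) and Thbs1 fell by 1.02. Of 13 tested in FAK-WT cells, 6 rose and 3 fell (median 0.22), where 15.6% of all genes rose and 25.2% fell. Ndrg1 rose by 2.28 (1.8 without FAK-WT replicate 3) and Gas1 by 1.60, and Gadd45a fell by 0.65 and Cdkn1b by 0.24. Without FAK-WT replicate 3 the median of the list was 0.098, where that of all genes was -0.068. Of 13 in each case, KMF cells had 6 higher and 2 lower (median 0.31, with 23.1% and 28.7% of all genes) and FAK-R454 cells 4 higher and 2 lower (0.12, with 9.78% and 9.89%). Between FAK-WT and FAK-R454 cells it was 1 and 1 (0.08, with 3.38% and 4.44%), and without FAK-WT replicate 3 it was 4 and 5, where 12.8% of all genes were higher and 15.3% lower.

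**Figure D5:**
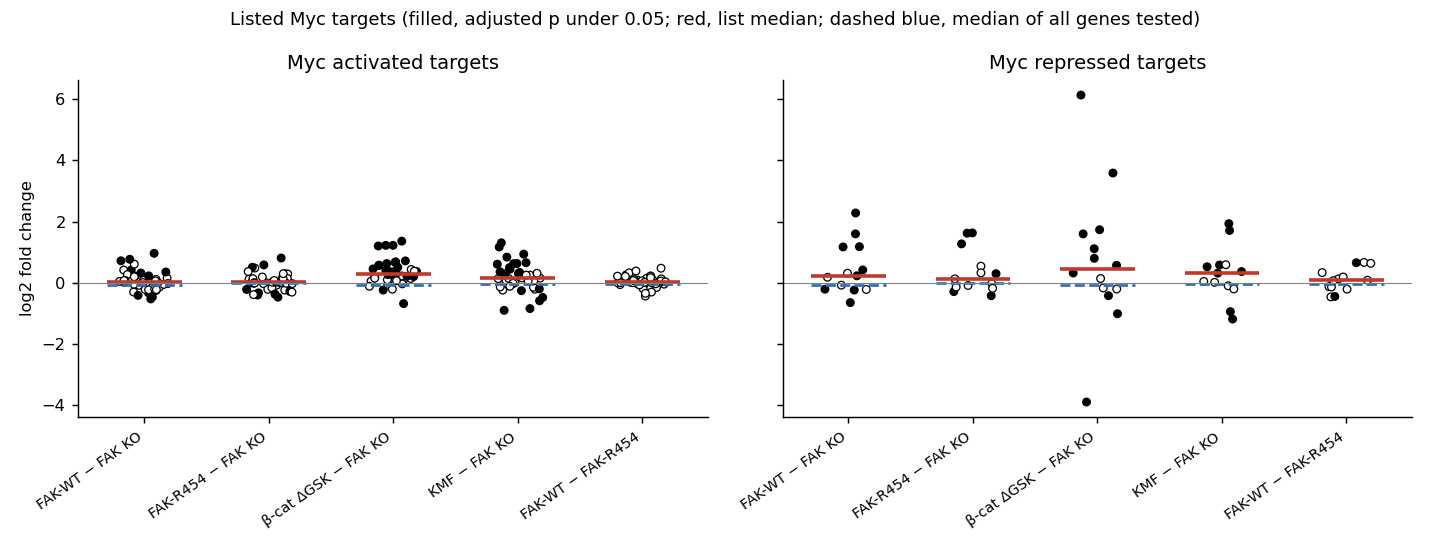
Log2 fold change (vertical axis) of the listed Myc targets, activated (left) and repressed (right), in the 5 comparisons, with filled points for an adjusted p under 0.05, a red line for the list median and a dashed blue line for the median of all genes tested. The activated genes have their highest median, 0.29, in ΔGSK against FAK KO cells, and the repressed genes spread from -3.91 to 6.14 there.

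Other listed genes act with Myc on chromatin or on the turnover of its protein. Of 12 cofactors, 6 rose and 1 fell in ΔGSK cells (median log2 fold change 0.12 against -0.09 for all genes) and 3 rose and 1 fell in FAK-WT cells (0.05 against -0.08). Of all genes tested, 23.7% rose and 34.4% fell in ΔGSK cells, and 15.6% and 25.2% in FAK-WT cells. Ruvbl2, a chromatin ATPase, rose by 0.48 and 0.46 in these comparisons, Hcfc1 rose by 0.34 and Cdk9 fell by 0.31 in ΔGSK cells, and Kat2a rose by 0.25 and Trrap fell by 0.28 in FAK-WT cells. Trrap at -0.22 in ΔGSK and Wdr5 at -0.14 in FAK-WT cells were not called. In KMF cells 3 rose and 4 fell, in FAK-R454 cells 2 rose, and between FAK-WT and FAK-R454 cells none was called. Of all genes, 23.1% rose and 28.7% fell in KMF and 9.78% and 9.89% in FAK-R454 cells, and 3.38% were higher and 4.44% lower between FAK-WT and FAK-R454 cells. Of 17 genes of Myc stability, 8 rose and none fell in ΔGSK cells, with Sgk1, a kinase, at 1.11 (SE 0.12, adjusted p = 8.48e-05) and Aurka, which shields N-Myc from degradation, at 0.68 (adjusted p = 4.65e-05). In FAK-WT cells 2 rose and 2 fell, with Sgk1 higher by 0.52 and the ubiquitin ligase gene Btrc lower at -0.34. Skp2 at 0.42 and Usp28 at -0.22 in FAK-WT and Btrc at -0.12 and Fbxo32 at -0.06 in ΔGSK cells were not called. In KMF cells 7 rose and 2 fell, none was called in FAK-R454 cells, and 1 was higher between FAK-WT and FAK-R454 cells. Without FAK-WT replicate 3, 4 stability genes rose and 3 fell against FAK KO, where 38.8% of all genes were called. Against FAK-R454, where 28.1% then were, 3 stability genes were higher and 3 lower, and 2 cofactors were higher. The medians of the stability list were 0.14 in ΔGSK, 0.17 in KMF, 0.08 in FAK-R454 and 0.01 in FAK-WT cells against FAK KO.

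Among 12256 genes, those whose pattern over the 14 samples was most like that of Myc were Slc43a3, Lpcat4, Rps2, Rcc1 and Ybx3, with root mean square differences of centred log2 values between 0.0939 and 0.126. None of the 5 lies on chromosome 15. Slc43a3 had its highest mean in ΔGSK cells at 30.1 FPKM, followed by FAK-WT (23.8), KMF (22.4), FAK KO (18.005) and FAK-R454 cells (17.5). For Mycn, the tested member with the widest range, they included Pmepa1, Ucma, Trim46 and Mgst2, with differences between 0.299 and 0.418. Pmepa1 had its highest mean in KMF cells at 20.6 FPKM, followed by FAK-R454 (11.1), FAK-WT (10.4), FAK KO (8.02) and ΔGSK cells (1.35). Samples of the same line share its clone or parent population, so likeness over samples is a description only.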

How the data were processed

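Poly(A) RNA of 14 tumorsphere samples in 5 lines was sequenced as paired-end libraries (NEBNext Ultra kit). The authors deposited 1 FPKM value per gene and sample for 35275 genes. The authors' processing notes name CASAVA 1.8, STAR 2.5 and mm10, whereas the methods of the study name TopHat2 for mapping. The coordinates match GRCm38. Whether counting used strand is not given in the sources used here. Columns of other samples were not present. FPKM times gene length gave whole fragments for 100% of values (tolerance 0.01 fragments), which gave the depth of each library. Intervals on fragments are exact conditional Poisson intervals and cover counting error only.

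Lines were compared in pairs with limma 3.58.1 (R 4.3.3, eBayes with trend) on log2(FPKM + 0.1), using the samples of the 2 lines and genes with a mean above 1 FPKM in at least 1 of them, so that changes of low genes are understated. P-values were Benjamini-Hochberg adjusted over all genes tested, and genes were called at 0.05 at any fold. The members, gene lists and tests were chosen with earlier results of these data known. All members are named in every comparison. Of each list, the 2 tested genes with the largest and the 2 with the smallest log2 fold change in ΔGSK and in FAK-WT against FAK KO cells were the ones to name, and for likeness the 5 closest genes. The fit was also run on simulated counts, with the same dispersion for every gene and no outlying sample or chromosome shift. Its outcome is not given here and does not bear on such features of the real samples. Alternatives were pseudocounts of 1 and 0.01, no filter, a mean above 5 FPKM, median-of-ratios scaling, 1 fit of 5 lines, no trend, the replicate number as a block, limma-voom on recovered fragments, chromosomes centred on their medians, and leaving out each sample. Promoter sequences are from RefSeq (GRCm38.p6). A gene that the likeness rule names for Mycn is not reported here.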

Additional observations from a re-analysis of the deposited data

How the results depend on the processing

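The log2 fold change of Myc kept its side of the threshold in ΔGSK, KMF and FAK-R454 against FAK KO cells under all alternatives. With chromosomes centred it lost its call in FAK-WT against FAK KO (0.12) and against FAK-R454 cells (0.22). With 1 sample left out at a time it ran from 0.38 to 0.45 in FAK-WT, 0.03 to 0.07 in FAK-R454, 0.72 to 0.81 in ΔGSK and 0.40 to 0.57 in KMF cells against FAK KO, and from 0.33 to 0.41 in FAK-WT against FAK-R454 cells. The number of members called became 1 in FAK-WT, 3 in KMF and 0 in FAK-WT against FAK-R454 cells with chromosomes centred, and 7 in ΔGSK cells with Mlx added. With a log2 fold change of at least 1 required it was 0 in FAK-WT, 0 in FAK-R454, 2 in ΔGSK, 1 in KMF and 0 in FAK-WT against FAK-R454 cells. With 1 sample left out it ran from 2 to 2, 0 to 1, 5 to 6 and 5 to 6 in FAK-WT, FAK-R454, ΔGSK and KMF against FAK KO, and from 0 to 2 in FAK-WT against FAK-R454 cells. The block on the replicate number used only numbers found in both lines. Against FAK-R454 cells, and in FAK-R454 against FAK KO cells, it therefore left out replicate 3 of the other line. It gave 2 members called in FAK-WT against FAK-R454 cells, where Mycn was -0.71, the same value as without FAK-WT replicate 3. With the block Mlx was called in ΔGSK cells at -0.18, and Mxd4 was no longer called in KMF cells. Correlations of same-numbered deviations from the line means were 0.4455, 0.28 and 0.076 in ΔGSK against FAK KO cells. In the other comparisons they ran from -0.245 to 0.145. Whether the numbers pair samples of ΔGSK and FAK KO cells was not tested, and the main fit used no pairing. Mxd4 in KMF cells turned to 0.0139 with chromosomes centred. Mycn has no value with a mean above 5 FPKM. The log2 fold change of Mycn in ΔGSK cells ran from -3.89 to -0.99 with the pseudocount and other settings. Of 445 member values under the alternatives other than leaving out each sample, among them the block, 434 kept their call. Of 252 with 1 sample left out, 240 did. Median-of-ratios scaling moved the median of all genes by at most 0.10. The number of all genes called in FAK-R454 against FAK KO cells was 2325, 1526 without a filter and 548 to 4390 with 1 sample left out. In FAK-WT against FAK-R454 cells it was 921, 581 without a filter, 528 with chromosomes centred, 3417 with the block and 7 to 3312 with 1 sample left out. In FAK-WT against FAK KO cells it was 4837, 3567 with chromosomes centred, 5165 without FAK KO replicate 2 and 2727 without FAK KO replicate 3. The counts of members under the alternatives were not set against such totals. A change in the members therefore cannot be told from a change over all genes. The causes were not tested. Mycl, Mycn and Axin2 below 1 FPKM rest on few fragments.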
